A study of Homo sapiens with 8 samples.

Results

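The progesterone receptor (PR) sites of T47D-MTVL cells before hormone and after 5 min of the progestin R5020 were compared as 2 lists of genomic regions. The lists held 844 and 22973 sites, 23817 of the 97966 sites in the 5 PR lists of the series. A site was called shared where it overlapped a site of the other list by at least 1 bp, lost where it was in the 0 min list and not in the 5 min list, and gained in the opposite case. The words describe list membership only. Of the 844 sites at 0 min, 92 were shared and 752 were lost, and of the 22973 sites at 5 min, 93 were shared and 22880 were gained.

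The cells are a derivative of T47D, an established human breast cancer line of luminal type, with a reporter whose promoter, from mouse mammary tumour virus, responds to progestins. Both groups were kept for 48 h in charcoal-treated serum, then for 1 day with no serum, and were fixed in 1% formaldehyde for 10 min. They differed in that the 5 min cells had received 10 nM R5020 and the 0 min cells none. Chromatin immunoprecipitation and sequencing (ChIP-seq) gave 1 library per group, as it did for the 30, 60 and 360 min PR lists and for the H3K4me1, H3K4me3 and RNA polymerase II lists of unstimulated cells used below.

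PR is a steroid receptor that is kept inactive by chaperone proteins until a progestin binds it. The bound receptor dimerises and attaches to hormone-responsive elements, many of them in enhancers far from gene starts, and recruits coactivators and chromatin remodelling enzymes. H3K4me1 is the histone mark of enhancers and of promoter flanks, H3K4me3 marks active promoters, and RNA polymerase II is found where genes are transcribed. The comparison addresses which places already listed for PR before hormone were still listed within minutes of it, and in what kind of chromatin the sites of each list lay.

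The lists give positions on hg19 and no peak height, score or read number, and the depth of the libraries is unknown. A site missing from a list may have been bound below that list's threshold. Intervals in parentheses are 95% intervals over the sites of 1 library. They treat sites as independent, although neighbouring sites can lie in 1 chromatin region, and cover counting error only. With 1 library per group no difference between the groups could be set against replicate error, and no p-value was computed.

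Few of the sites listed before hormone were in the 5 min list. The shared sites made up 10.9% of the sites before hormone (8.88 to 13.2%) and 0.405% of those after it (0.327 to 0.496%). The 92 and 93 sites formed 95 overlapping pairs at 90 places. At 3 places a 0 min site met more than 1 site of the 5 min list, and 2 sites of the 5 min list each met more than 1 site of the 0 min list. Requiring that the overlap cover at least 50% of both sites left 5.69% of the 0 min list shared. Accepting gaps of up to 500 bp raised it to 13.7%, so that with the widest rule as well most of the 0 min sites had no counterpart.

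Lost sites were the narrowest. Their median width was 229 bp (226 to 234 bp), against 257.5 bp (240 to 287 bp) for the shared sites in the 0 min list. In the 5 min list the gained sites had a median of 269 bp (267 to 271 bp) and the shared sites one of 298 bp (274 to 390 bp). Lost sites covered 0.189 Mb and gained sites 6.81 Mb of the genome. Sharing was most frequent among wide sites of the 0 min list. In the quartile of widest sites, with a median of 332 bp, 41 of 211 were shared (19.4%, 14.3 to 25.4%). In the other quartiles, from the narrowest up, the shares were 8.53%, 6.16% and 9.48%, whose intervals overlap each other. A wide site has more bases with which to meet another site, and the part of this was not tested. The quartile of widest sites also took in sites of a window on chromosome 9, from 68 to 69 Mb, where 8 of 14 were shared.

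The 95 pairs show how the same place was outlined in both lists. The midpoints of the paired sites were a median of 75 bp apart (53 to 105.5 bp), and the overlap took up a median of 97.7% of the narrower site. The 5 min site was the wider one in 59 pairs (62.1%, 51.6 to 71.9%) and the narrower one in 36. The median difference was 62 bp (6 to 108 bp). A 5 min site contained the whole 0 min site in 30 pairs, and the reverse held in 14.

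Pairs in H3K4me3 regions and pairs elsewhere differed in which site was the wider one. The contrast was smaller without a single window of chromosome 9. Where the 0 min site overlapped an H3K4me3 region, the 5 min site was the wider one in 9 of 29 pairs (31.0%, 15.3 to 50.8%). The median widths in these pairs were 323 bp at 0 min and 236 bp at 5 min. In the remaining 66 pairs the 5 min site was wider in 50 (75.8%, 63.6 to 85.5%), with medians of 239.5 and 383 bp. A single 1 Mb window on chromosome 9, from 68 to 69 Mb, supplied 8 pairs, and in all 8 the 5 min site was the narrower one. Without this window, an alternative chosen after seeing the data, the 5 min site was wider in 9 of 21 H3K4me3 pairs (42.9%, 21.8 to 66.0%), and the interval overlaps that of the pairs outside H3K4me3 regions. The contrast was thus smaller without this window. Overlap of the intervals does not show that what remains is within counting error, and no interval for that difference was computed. The 0 min sites of the H3K4me3 pairs were also the wider ones at the start, and the part of that starting width was not tested.

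**Figure D1:**
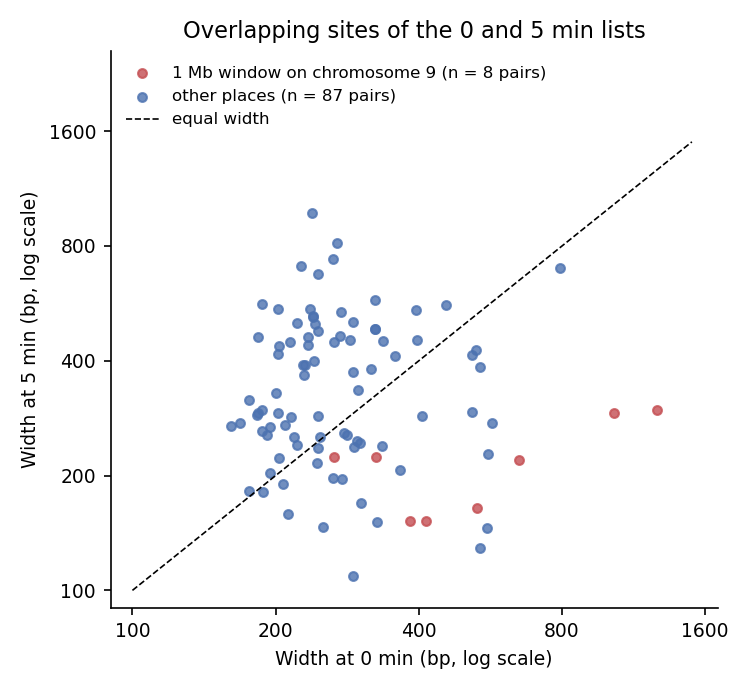
Width of the 5 min site (vertical, bp, log scale) against the width of the 0 min site it overlaps (horizontal, bp, log scale) for the 95 pairs, with the line of equal width. Of the pairs, 59 lie above the line, and the 8 pairs from 68 to 69 Mb of chromosome 9 (red) all lie below it.

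The shared sites with the largest differences in width fall into both groups. On chromosome 19 a 0 min site from 41427352 to 41427591 (239 bp) lay inside a 5 min site from 41426738 to 41427713 (975 bp), the widest shared site at 5 min. On chromosome 5 a 226 bp site from 154448216 to 154448442 lay inside one of 709 bp from 154448154 to 154448863. On chromosome 3 a 246 bp site from 187526727 to 187526973 lay inside one of 676 bp from 187526462 to 187527138. At these 3 places the 0 min and the 5 min site each overlapped an H3K4me1 region of unstimulated cells, and the 5 min site was listed again at 30, 60 and 360 min. The other 2 of the 5 pairs with the largest gain in width were on chromosome 8, with 269 and 816 bp in one and 264 and 738 bp in the other. The 0 min site of the former overlapped none of the 3 kinds of region, and the latter was listed again at 30 and 360 min and not at 60 min. In the opposite direction the largest differences were on chromosome 9, where a 0 min site of 1266 bp from 68421108 to 68422374 met a 5 min site of 298 bp, and one of 1029 bp from 68424015 to 68425044 met a 5 min site of 292 bp. A similar case on chromosome 17, from 41466028 to 41466585, was 557 bp wide at 0 min and 146 bp at 5 min. These 3 places overlapped all 3 kinds of chromatin region, so that the PR, H3K4me1, H3K4me3 and RNA polymerase II libraries of unstimulated cells all had a listed region there. Whether such places have high signal whatever is precipitated was not tested, and no list of such places was used here.

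The shared sites lay almost entirely in chromatin that carried H3K4me1 before hormone. Of the 92 shared sites, 86 overlapped an H3K4me1 region (93.5%, 86.3 to 97.6%). The share was 42.6% (39.0 to 46.2%) for lost sites and 50.9% (50.2 to 51.5%) for gained sites, and 42.1% of the merged sites of all 5 PR lists did so. RNA polymerase II regions held 43.5% of shared sites (33.2 to 54.2%), 9.44% of lost sites (7.45 to 11.8%) and 8.97% of gained sites (8.61 to 9.35%), with 6.99% over the merged sites. H3K4me3 regions held 31.5% of shared sites (22.2 to 42.0%), 9.18% of lost sites (7.21 to 11.5%) and 4.36% of gained sites (4.10 to 4.63%), with 4.10% over the merged sites. Shared sites were thus above lost sites by 50.9 percentage points for H3K4me1 (43.1 to 55.9), 34.0 points for RNA polymerase II (24.1 to 44.4) and 22.3 points for H3K4me3 (13.5 to 32.6). Shared sites were also wider, at a median of 257.5 bp against 229 bp, and the part of width here was not tested. Without the 1 Mb windows that held 5 or more 0 min sites, a choice made after seeing the data, the H3K4me3 shares were 24.0% for shared and 7.99% for lost sites.

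**Figure D2:**
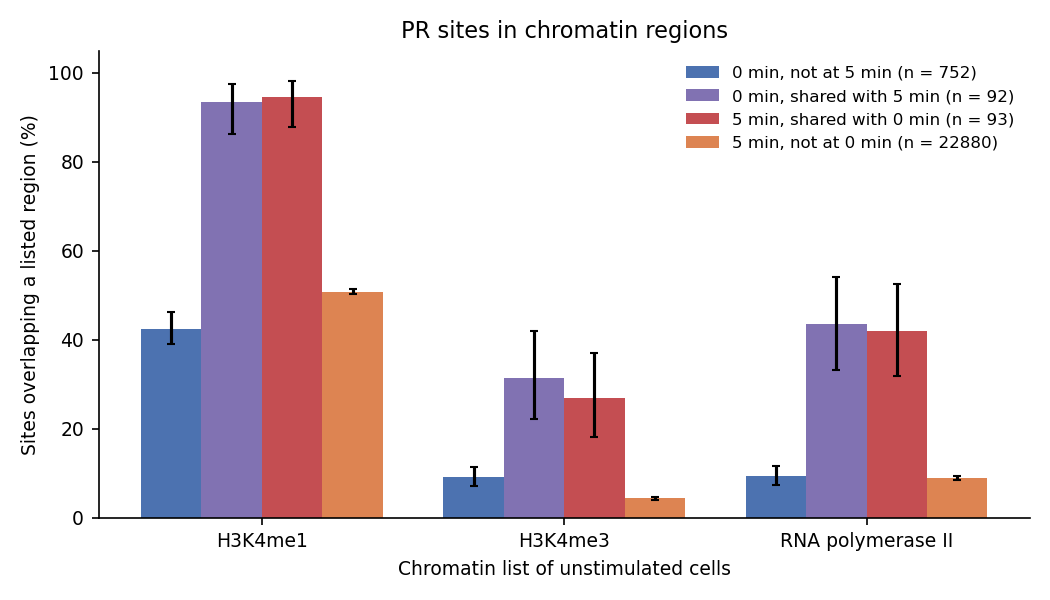
Percent of sites (vertical) that overlap a region of each chromatin list of unstimulated cells (horizontal), for lost, shared and gained sites; shared sites are drawn once by their 0 min and once by their 5 min position. Bars are shares and lines are exact 95% intervals, and the shared sites are the highest for each of the 3 lists, at 93.5%, 31.5% and 43.5% by their 0 min position.

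Read from the chromatin to the sites, the same counts show that a 0 min site without any of the 3 marks was seldom listed again. Of the 426 such sites, 4 were shared (0.939%, 0.256 to 2.39%). Sites in H3K4me1 regions alone were shared in 39 of 269 cases (14.5%, 10.5 to 19.3%), and sites in all 3 kinds of region in 19 of 58 (32.8%, 21.01 to 46.3%). With no regard to the other marks, 21.2% of the 0 min sites in H3K4me1 regions were shared (17.3 to 25.5%), against 1.37% of those outside (0.504 to 2.96%). In RNA polymerase II regions it was 36.0% (27.1 to 45.7%), against 7.09% outside (5.34 to 9.20%). Chromosome 3 had lower shares, with 10.1% of the 0 min sites in H3K4me1 regions shared (5.66 to 16.4%), against 26.9% on the other chromosomes (21.7 to 32.6%). Outside H3K4me1 regions no site of chromosome 3 was shared (0 of 85, which allows up to 3.53% by 3 counts of the total and 4.25% by the exact interval).

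Lost and gained sites differed by more than counting error in 2 of the 3 marks. Lost sites were in H3K4me1 regions less often than gained sites, by 8.31 percentage points (4.69 to 11.9), and in H3K4me3 regions more often, by 4.81 points (2.93 to 7.10). For RNA polymerase II the difference of 0.469 points had an interval from -1.46 to 2.80. None of the 3 marks was found at 422 lost sites (56.1%, 52.5 to 59.7%) and at 10971 gained sites (48.0%, 47.3 to 48.6%), against 4 shared sites of the 0 min list (4.35%, 1.20 to 10.8%). The lost sites of chromosome 3 raised the H3K4me1 share. Without that chromosome 36.1% of lost sites (32.0 to 40.3%) and 50.03% of gained sites (49.3 to 50.7%) were in H3K4me1 regions.

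The sum of the shared and lost sites hides part of this. Over all sites of each list, the H3K4me1 share was 48.1% (44.7 to 51.5%) at 0 min and 51.0% (50.4 to 51.7%) at 5 min, a difference of -2.93 points with an interval from -6.35 to 0.499. Without chromosome 3 the difference was -7.04 points (-10.9 to -3.05), and without the 19 windows of 1 Mb that held 5 or more 0 min sites it was -10.9 points (-14.5 to -7.07). The H3K4me3 share was higher at 0 min by 7.16 points (5.15 to 9.51) and the RNA polymerase II share by 4.05 points (1.90 to 6.52). The size of both differences moved with the regions taken: they were 1.47 and 1.79 points with the wider 50% of the chromatin regions, and 13.6 and 7.71 points with the wider 50% of the PR sites.

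The higher H3K4me3 share at 0 min was concentrated in wide sites. In the quartile of narrowest 0 min sites, 3.32% overlapped an H3K4me3 region (1.34 to 6.72%), and in the widest 25.6% (19.8 to 32.0%). At 5 min the corresponding shares were 4.004% (3.51 to 4.54%) and 4.89% (4.35 to 5.48%), close to level across the width range. RNA polymerase II had the same order, from 6.64% to 27.0% at 0 min and from 5.48% to 13.4% at 5 min. For H3K4me1 both lists had a large spread between the outer quartiles, from 36.0% to 67.8% at 0 min and from 39.4% to 63.2% at 5 min. A wide site has more bases with which to meet a region. When at least 50% of the PR site had to lie inside the region, the H3K4me3 difference was 6.66 points (4.79 to 8.88), and in the wider 50% of the sites it was 13.6 points (10.2 to 17.6).

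Sites outside the marked regions also differed in how far away they were. Lost sites outside H3K4me1 regions were a median of 8316.5 bp from the nearest one (6923 to 10904 bp), and gained sites 16426 bp (15631 to 17253 bp). For H3K4me3 the medians were 30669 bp (24679 to 38925 bp) and 46885 bp (45626 to 48369 bp). Within 10 kb of an H3K4me3 region, counting those inside one, lay 51.1% of shared sites (40.4 to 61.7%), 35.2% of lost sites (31.8 to 38.8%) and 22.8% of gained sites (22.2 to 23.3%). For RNA polymerase II the medians were 53687 bp (41172 to 66268 bp) for lost and 51990 bp (50355 to 53748 bp) for gained sites, with overlapping intervals. Lost sites were thus inside H3K4me1 regions less often than gained ones, while those outside were nearer to an H3K4me1 or H3K4me3 region. The distances were not computed by chromosome. Chromosome 3 held 209 of the 752 lost and 2313 of the 22880 gained sites, and its part in these distances was not tested.

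H3K4me1 regions that held PR sites were wide, and many held several. The median width was 2124 bp over all 73263 regions, 6350 bp (4978 to 7408 bp) over the 363 that held a 0 min site and 3440 bp (3364 to 3525 bp) over the 8861 that held a 5 min site. The 148 regions with sites of both lists were widest, with a median of 12241.5 bp (8830 to 13618 bp), and in 69 of these none of them overlapped each other. Of the lost sites, 96 of the 320 inside H3K4me1 regions (30.0%, 25.0 to 35.3%) were in a region that held a 5 min site elsewhere. For H3K4me3 regions, which are much narrower, this held for 4 of 69 lost sites (5.80%, 1.60 to 14.2%), and for RNA polymerase II regions for 2 of 71 (2.82%, 0.343 to 9.81%). Among all regions, 12.1% of H3K4me1, 4.54% of H3K4me3 and 6.499% of RNA polymerase II regions held a 5 min site. The share for lost sites was above this level for H3K4me1. For the other marks its interval included the level, so the low counts there do not set lost sites apart. A wider region has more room for a second site, and its part in these counts was not tested. At 5 min 1869 H3K4me1 regions held 2 or more PR sites, 21.1% of those with any (20.2 to 21.96%). The most in 1 region were 51 sites at 5 min and 11 at 0 min.

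Inside H3K4me1 regions the shared and gained sites leaned slightly towards the middle. On a scale on which 0 is the edge and 100 the centre of the region, the median position was 56.0 (49.4 to 60.4) for lost sites, 62.8 (51.8 to 74.4) for shared sites and 61.8 (60.9 to 62.5) for gained sites. A site placed evenly along a region would have a median of 50 on this scale, and the interval of the lost sites includes that value. It also overlaps the interval of the shared sites, and no difference between the classes was computed. The regions around lost, shared and gained sites had median widths of 6983, 7942.5 and 4144 bp, and the part of region width was not tested.

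Neighbouring sites were farther apart in the 0 min list than in the 5 min list. The median distance from a site to the nearest other site of its list was 401 kb (326 to 452 kb) at 0 min and 12.9 kb (12.4 to 13.5 kb) at 5 min. A longer list has shorter distances by its length alone. When sites no more than 10 kb apart were joined into chains, 779 of the 844 sites at 0 min stood alone (92.3%, 90.3 to 94.0%), against 12379 at 5 min (53.9%, 53.2 to 54.5%). At 0 min 1 chain had 5 or more members, the 13 sites on chromosome 9 from 68413481 to 68425968. At 5 min there were 346 such chains with 2246 sites, 9.78% of the list (9.40 to 10.2%), and the longest held 19 sites on chromosome 6 from 12270854 to 12332445. The 1 Mb window that contains this longest chain, from 12 to 13 Mb, had 55 sites at 5 min and 0 at 0 min.

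Shared sites lay among closely spaced 5 min sites. A shared site of the 5 min list was a median of 1.07 kb (0.515 to 2.55 kb) from the nearest other 5 min site, and a gained site 13000 bp (12481 to 13556 bp). Within 50 kb of a shared site of the 0 min list there was a median of 4 other 5 min sites (3 to 6), around lost sites a median of 1 (1 to 1), and around gained sites a median of 2 (2 to 2). No other 5 min site lay within 10 kb of 29.3% of the shared sites (20.3 to 39.8%), 71.9% of the lost sites (68.6 to 75.1%) and 54.0% of the gained sites (53.3 to 54.6%). By this measure the lost sites had the fewest 5 min sites around them.

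**Figure D3:**
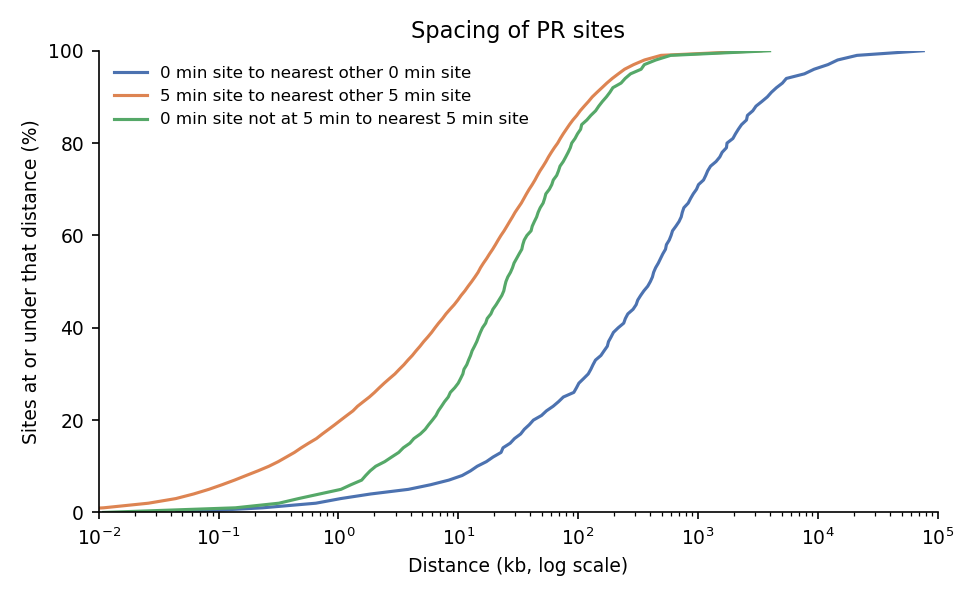
Percent of sites (vertical) whose nearest site is at or under a given distance (horizontal, kb, log scale), for 0 min sites among themselves, 5 min sites among themselves and lost sites to the 5 min list. The curves cross 50% at 401 kb, 12.9 kb and 25.0 kb.

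Lost sites were seldom near misses of the overlap rule. Their median distance to the nearest 5 min site was 25.0 kb (22.6 to 29.1 kb). Only 24 of the 752 were within 500 bp of one (3.19%, 2.06 to 4.71%), 211 within 10 kb (28.1%, 24.9 to 31.4%) and 620 within 100 kb (82.4%, 79.5 to 85.1%). The 3 nearest were all on chromosome 3, at 186586782 to 186587032, 192392880 to 192393113 and 189040104 to 189040361, with 11, 21 and 22 bp between them and a 5 min site. The farthest was on chromosome 21 from 11093815 to 11094044, 3.96 Mb from any 5 min site. From the other side, a gained site was a median of 1.43 Mb (1.38 to 1.47 Mb) from the nearest 0 min site, and 48 of the 22880 (0.210%, 0.155 to 0.278%) were within 500 bp of one.

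The widest lost sites were not typical of the class. On chromosome 17 a lost site of 1462 bp from 41399803 to 41401265 was 34509 bp from the nearest 5 min site, and another of 937 bp from 41381560 to 41382497 was 16266 bp from one. On chromosome 20 a lost site of 953 bp ran from 26188505 to 26189458, and on chromosome 9 one of 854 bp ran from 68419130 to 68419984, 452 bp from a 5 min site. All 4 overlapped H3K4me1, H3K4me3 and RNA polymerase II regions, a combination found at 39 of the 752 lost sites (5.19%, 3.71 to 7.02%). As for the wide shared sites above, whether the signal at these 4 places is particular to PR was not tested. The remaining one of the 5 widest overlapped an H3K4me1 region alone.

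The widest gained sites were wider than any shared site of the 5 min list. The widest, on chromosome 5 from 1326369 to 1327934 (1565 bp), overlapped regions of all 3 chromatin lists and was 5534 bp from a 0 min site. Next in width were those on chromosome 9 from 13083883 to 13085179 (1296 bp), on chromosome 3 from 8525996 to 8527176 (1180 bp) and on chromosome 16 from 77971244 to 77972410 (1166 bp) and from 17067390 to 17068553 (1163 bp). The chromosome 9 site overlapped none of the 3 kinds of region, and the last 3 overlapped H3K4me1 regions alone. The first 4 were listed again at 30, 60 and 360 min, and the fifth at 30 and 60 min.

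The 0 min list was unevenly spread over the chromosomes. Chromosome 3 held 223 of its sites (26.4%, 23.5 to 29.5%), against 2329 of the 5 min sites (10.1%, 9.75 to 10.5%), while 11.4% of all H3K4me1 regions lay there. The ratio of 5 min to 0 min sites was therefore lowest on chromosome 3, at 10.4. It was 18.98 on chromosome 17 and 19.5 on chromosome 9, and went up to 266 on chromosome 22, where the 0 min list had 1 site. Counts of 0 min sites under 20 on 12 of the 23 chromosomes make the larger ratios imprecise.

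**Figure D4:**
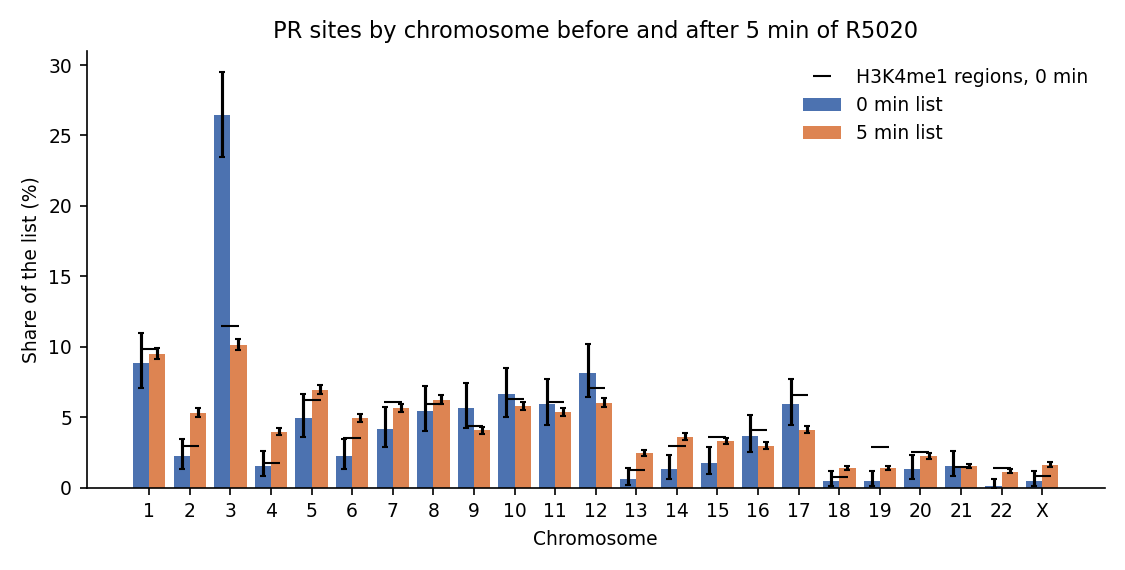
Share (percent) of each list on every chromosome, blue for 0 min and orange for 5 min, with exact 95% intervals, and the percent of the H3K4me1 regions (black marks). Chromosome 3 stands at 26.4% for 0 min and 10.1% for 5 min.

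On chromosome 3 the 0 min sites were gathered towards the end of the long arm. Between 160 and 200 Mb lay 173 of the 223 sites (77.6%), against 1050 of 2329 sites at 5 min (45.1%) and 56.4% of the H3K4me1 regions of the chromosome. Between 180 and 200 Mb alone lay 123 of the 223 (55.2%), of which 9 were shared. This stretch also held 24.7% of the 5 min sites of the chromosome. Of its H3K4me1, H3K4me3 and RNA polymerase II regions, 30.8%, 32.2% and 35.4% lay there. Only 14 of the 223 chromosome 3 sites were shared (6.28%, 3.47 to 10.3%), against 12.6% over the other chromosomes (10.1 to 15.4%). Chromosome 9 had 11 of 48 shared (22.9%, 12.03 to 37.3%), and chromosomes 14 and X had none of 11 and 4, with exact upper limits of 28.5% and 60.2%. DNA copies per chromosome were not measured here, and their part in these counts was not tested.

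Windows of 1 Mb gave the same picture at closer range. Of the 518 windows with a 0 min site, 506 also held a 5 min site (97.7%, 96.0 to 98.8%). Nearly every window had one: 2657 of the 2872 windows with a site or region of any list (92.5%), and 2151 of those without a 0 min site (91.4%, 90.2 to 92.5%). The 19 windows with 5 or more 0 min sites, 14 of them on chromosome 3, held 168 of the 844 sites (19.9%, 17.3 to 22.8%) and 530 of the 5 min sites (2.31%, 2.12 to 2.51%). Because these windows were chosen by their 0 min sites, a larger share of the 0 min list in them follows from the choice. The window from 194 to 195 Mb of chromosome 3 had the most 0 min sites, 19, with 35 sites at 5 min and no shared one. The window from 197 to 198 Mb had 15 and 28, with 2 of the 15 shared. A window on chromosome 3 from 193 to 194 Mb and one on chromosome 9 from 68 to 69 Mb tied at 14. The former had 56 sites at 5 min and 1 of the 14 shared, and the latter had 7 and 8 of the 14 shared. It was thus one of 3 among these 19 windows with fewer sites at 5 min than at 0 min, with one on chromosome 10 from 47 to 48 Mb (9 and 7) and one on chromosome 2 from 91 to 92 Mb (6 and 3). All 0 min sites of these 3 windows overlapped H3K4me1 regions, and 14, 2 and 3 of them overlapped H3K4me3 regions. Whether these windows have high signal whatever is precipitated was not tested.

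The 3 windows with the most 5 min sites included 1 of these 19, the one on chromosome 16. On chromosome 12 the window from 116 to 117 Mb went from 3 sites at 0 min, all of them shared, to 72 at 5 min. On chromosome 16 the window from 85 to 86 Mb had 12 and 69, with 4 of the 12 shared, and on chromosome 8 the window from 116 to 117 Mb had 2 and 62, with 1 of the 2 shared. Without the 19 dense windows the lost sites were in H3K4me1 regions in 32.8% of cases (29.0 to 36.7%), the shared sites in 92.0% (83.4 to 97.0%) and the gained sites in 50.1% (49.4 to 50.7%). The H3K4me3 shares without them were 7.99% (5.95 to 10.4%), 24.0% (14.9 to 35.3%) and 4.21% (3.95 to 4.48%).

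The later PR lists followed the classes of the first 5 min. Of the 752 lost sites, 8 were listed at 30 min (1.06%, 0.460 to 2.09%), 10 at 60 min (1.33%, 0.639 to 2.43%) and 7 at 360 min (0.931%, 0.375 to 1.91%). Of the 93 shared sites of the 5 min list, 80 were listed at 30 min (86.0%, 77.3 to 92.3%), 78 at 60 min (83.9%, 74.8 to 90.7%) and 80 at 360 min (86.0%, 77.3 to 92.3%). Of the gained sites 61.8% were listed at 30 min (61.2 to 62.4%), 57.3% at 60 min (56.7 to 57.9%) and 50.4% at 360 min (49.8 to 51.1%). At all 3 later times 78.5% of the shared sites (68.8 to 86.3%) and 44.4% of the gained sites (43.8 to 45.1%) were listed. At none of them 8.60% (3.79 to 16.2%) and 32.2% (31.6 to 32.8%) were.

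**Figure D5:**
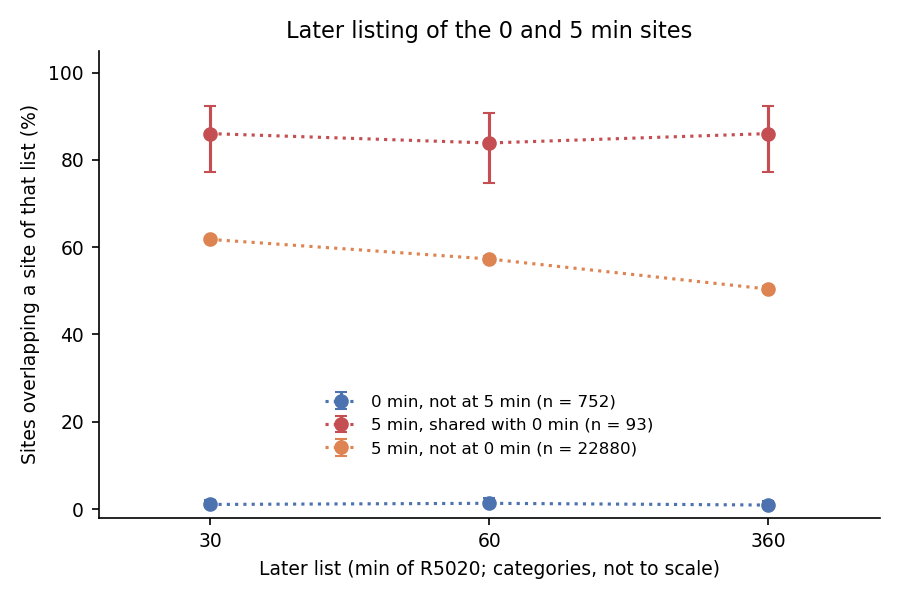
Percent of lost, shared and gained sites (vertical) that overlap a site of the 30, 60 or 360 min list (horizontal, categories), with exact 95% intervals. Shared sites lie between 83.9% and 86.0%, gained sites between 50.4% and 61.8%, and lost sites at or under 1.33%.

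Among gained sites, those in marked chromatin were listed again more often. At 60 min 66.6% of the gained sites in H3K4me1 regions were listed (65.7 to 67.4%), against 47.7% of those outside (46.8 to 48.6%). The shares were 75.3% (73.3 to 77.1%) and 55.5% (54.9 to 56.2%) for RNA polymerase II regions, and 74.5% (71.7 to 77.2%) and 56.5% (55.9 to 57.2%) for H3K4me3 regions. Wide sites have more bases with which to meet both a region and a later site, and the part of width here was not tested. For the shared sites of the 5 min list the values in and outside H3K4me3 regions, 80.0% (59.3 to 93.2%) and 85.3% (74.6 to 92.7%), could not be told apart at these numbers.

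Only 17 lost sites came back in a later list. Of these, 12 were listed at 1 later time and 3 at all 3. In H3K4me1 regions lay 15 of the 17 and in H3K4me3 regions 10, and 6 were on chromosome 9. Of all 752 lost sites, 320 were in H3K4me1 regions, 69 in H3K4me3 regions and 37 on chromosome 9. The chromosome 9 sites included those starting at 68413481, 68414168, 68417908 and 68419130, each in an H3K4me3 region. These belong to the chain that ends at 68425968, named above. A 5 min site was within 500 bp of 5 of the 17, against 24 of all 752 lost sites. Among the 5 was a site on chromosome 3 from 186358773 to 186359006, 195 bp from a 5 min site. It was listed again at each later time.

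For the 60 min list there is also a measure of nucleosome-sized DNA. Micrococcal nuclease (MNase) cuts between nucleosomes, and the reads from unstimulated cells are given as a ratio to those after R5020. The 80 sites also listed at 0 and 5 min had a median of 2.085 in the authors' deposited table, and it was 1.36 at the 13038 listed at 5 and not at 0 min. In the authors' deposited table it was 1.59 at the 9 sites listed at 0 and not at 5 min, and 1.24 at the 11306 listed at neither. The shared sites were thus the class with the highest median ratio. In the authors' deposited table their quartiles were 1.54 and 2.86, against 1.23 and 1.77 for the 9 sites and 1.08 and 1.75 for the 13038. Of these 80 sites, 36 were in RNA polymerase II regions, against 1567 of the 13038 listed at 5 and not at 0 min. Of the 9 sites listed at 0 and not at 5 min, 6 were in such regions, and of the 11306 listed at neither, 569. Among sites in RNA polymerase II regions the medians in the authors' deposited table were 2.565, over 36 sites at 0 and 5 min, and 2.03 for those at 5 and not 0 min. There the authors' deposited table gives 1.68 over the 6 sites at 0 and not 5 min, and 2.01 for those at neither. In H3K4me1 regions without the other marks the authors' deposited table gives 1.82, over 35 sites at 0 and 5 min, and 1.44 for those at 5 and not 0 min. A higher ratio means fewer MNase reads after hormone relative to before, and these values describe the sites of 1 table made at 60 min, not at 5 min.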

How the data were processed

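Site lists of 5 PR libraries and region lists of 3 chromatin libraries were used, 1 library per group, as the authors deposited them. Per the submitters' processing notes their build is hg19. What aligned the reads and called the sites, with which threshold, input and depth, is not stated in the material used here. The lists hold positions only. The authors deposited 1 ratio per 60 min site, unstimulated over R5020 normalized MNase reads, per the file headers, with no account of the normalization. The 2 columns of MNase reads per condition in that table were not used.

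Computed here were overlaps (at least 1 bp, width as end minus start), distances between the nearest ends, chains of sites at most 10 kb apart, and counts in 1 Mb windows by site midpoint, with Python 3.11.15, NumPy 2.4.6, SciPy 1.17.1 and Matplotlib 3.10.9. Shares carry exact (Clopper-Pearson) 95% intervals (the limit by 3 counts of the total is named where used), differences of shares Newcombe's interval, and medians a binomial interval of ranks. The overlap and distance code was tested on simulated lists. Samples were grouped by their labels, and nothing was tested between groups, since each has 1 library. Single sites named are the 5 leading ones in each class by width, the 5 pairs with the largest width difference each way, the 3 lost sites nearest to and farthest from a 5 min site, and the 3 windows with most sites of each list; a few of each are printed. The members and lists were chosen with earlier results of these data known. Gene names and sequences at the sites were not used here, since no hg19 annotation or genome was at hand.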

Additional observations from a re-analysis of the deposited data

How the results depend on the processing

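Of 62 recomputed values for 13 results, 48 stayed within counting error of the reported value (for the ratio of site numbers, within 1.5 times), 14 moved beyond it, and none that was clear of 0 changed direction. No paired analysis was possible because each group has 1 library. With a reciprocal overlap of at least 50%, the shared part was 5.69% at 0 min and 0.209% at 5 min, and with gaps of up to 500 bp it was 13.7% and 0.614%. Merging sites within 500 bp moved the median width at 5 min to 275 bp and the median spacing at 5 min to 18122 bp. In the wider 50% of sites, the H3K4me3 difference (0 min minus 5 min) was 13.6 points and the RNA polymerase II difference 7.71 points. With the wider 50% of the chromatin regions these fell to 1.47 and 1.79 points, and the H3K4me1 difference, whose interval includes 0, was 0.340 points. Without chromosome 3 the H3K4me1 difference was -7.04 points (-10.9 to -3.05) and the median spacings were 584440 bp and 13494 bp. Without the 19 windows of 1 Mb with 5 or more 0 min sites, an alternative chosen after seeing the data, the H3K4me1 difference was -10.9 points (-14.5 to -7.07). The H3K4me1 difference thus excluded 0 without chromosome 3, without the dense windows and, at -3.86 points, without chromosome 9, and not in the other alternatives. The causes of these shifts were not tested. Read depth is unknown, so how far it sets the lengths of the lists cannot be determined from these files.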
